A study of Homo sapiens with 21 samples.

Results

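Integrins and laminins were followed in A673 cells, an Ewing sarcoma cell line, after the fusion oncogene EWS/FLI was lowered and put back in different versions. The genes were taken from a list of symbols: 17 integrin alpha subunits, 8 integrin beta subunits and 11 laminin chains, 36 genes of the 57820 in the deposited table. A gene was described when at least 3 of the 21 libraries reached log2(10), which is 3.322, and 34 of the 36 did so (15 alpha subunits, 8 beta subunits and 11 laminins). The exceptions were ITGA2B, the platelet integrin alpha subunit, which lay between 1.4 and 2.2 (log2) in all libraries, and ITGAL, an alpha subunit of lymphocytes, between 0.86 and 1.5, so that 0 libraries reached the minimum for either.

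All cells were A673 cells stably infected with an RNAi virus, selected for 4 days and then given a second virus. In the mut9 group (n = 3, batches 3 to 5), the delta 22 group (n = 4, batches 1 to 4) and the wild-type group (n = 5, batches 1 to 5), RNAi against EWS/FLI was combined with a pMSCV-hygro vector carrying the mut9, the delta 22 or the unaltered type IV form of EWS/FLI. The knockdown group (n = 5, batches 1 to 5) carried the same RNAi with an empty vector, and the control group (n = 4, batches 1, 2, 3 and 5) carried RNAi against luciferase, also with an empty vector. The changes that mut9 and delta 22 make to the protein are not given in the sources used here, and 1 cell line is the whole of the model. Replicate numbers are the labelled batches, and nothing says whether libraries of a group came from separate infections, so p-values measure the spread between these libraries, which may be technical.

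Integrins are cell surface receptors made of 1 alpha and 1 beta subunit, and their pairing decides whether a cell holds on to collagen, laminin, fibronectin or another cell. Laminins are secreted trimers of an alpha, a beta and a gamma chain, the main adhesive proteins of basement membranes and ligands of several integrins. EWS/FLI joins a part of EWS to the DNA-binding domain of FLI1, which recognises the letters GGAA, and the series title asks what the EWS portion adds to binding at GGAA repeats.

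Promoters of 4 genes are shown because of how these genes differed between the mut9 and the wild-type construct: LAMA4 and ITGA10 by the most, LAMB2 with the smallest adjusted p, and ITGB8 in the opposite direction. Each is the 250 bases before the start of transcription, 5′ to 3′ on the strand of the gene, from RefSeq (GRCh38.p14, a later build than the hg19 named in the submitters' processing notes), with GGAA or its complement TTCC in capitals. LAMA4 (chr6:112254568-112254817, minus strand), ITGA10 (chr1:145910051-145910300, minus strand) and LAMB2 (chr3:49133051-49133300, minus strand) were higher with mut9, and ITGB8 (chr7:20330650-20330899, plus strand) was lower.
LAMA4: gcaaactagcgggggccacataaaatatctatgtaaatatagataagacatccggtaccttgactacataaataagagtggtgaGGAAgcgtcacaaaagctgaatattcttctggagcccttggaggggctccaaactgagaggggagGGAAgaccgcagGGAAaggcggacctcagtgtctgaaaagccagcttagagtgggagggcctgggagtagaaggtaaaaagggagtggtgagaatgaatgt
ITGA10: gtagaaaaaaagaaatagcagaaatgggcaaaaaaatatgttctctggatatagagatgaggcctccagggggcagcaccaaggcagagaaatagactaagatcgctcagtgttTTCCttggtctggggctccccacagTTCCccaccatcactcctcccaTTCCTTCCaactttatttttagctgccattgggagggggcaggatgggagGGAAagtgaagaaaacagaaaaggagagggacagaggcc
LAMB2: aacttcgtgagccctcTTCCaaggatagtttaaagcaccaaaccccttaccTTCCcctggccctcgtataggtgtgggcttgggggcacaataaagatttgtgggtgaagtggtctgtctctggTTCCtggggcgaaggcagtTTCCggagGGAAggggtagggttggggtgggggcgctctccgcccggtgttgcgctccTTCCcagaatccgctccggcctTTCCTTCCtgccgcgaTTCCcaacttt
ITGB8: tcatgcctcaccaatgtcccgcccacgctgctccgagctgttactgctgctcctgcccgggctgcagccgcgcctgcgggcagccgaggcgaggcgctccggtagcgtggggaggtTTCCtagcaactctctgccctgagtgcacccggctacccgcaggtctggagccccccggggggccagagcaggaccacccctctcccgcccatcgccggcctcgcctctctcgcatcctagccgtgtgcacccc
The LAMA4 window holds 3 such tetramers, that of ITGA10 5, that of LAMB2 9 and that of ITGB8 1. Windows of other genes that were higher with mut9 hold from 0 (ITGA8) and 1 (LAMC1) to 6 (ITGA5). Whether the number of tetramers goes with the difference was not tested. GGAAGGAA on either strand, which holds a pair of adjacent tetramers that are also counted singly, is in the windows of ITGA10 and LAMB2. The table held 33 promoters of 26 of the 36 genes. GGAA or TTCC was in 93.9% of these against 92.7% of all 35116 promoters of that length, GGAAGGAA in 6.06% against 3.06%, and CCGGAAGT on either strand in 3.03% (1 promoter, of ITGB5) against 3.42%. A match is a description of letters and says nothing of binding.

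After knockdown of EWS/FLI, 29 of the 34 genes were higher than in control cells and 2 were lower. The background is large: 35.5% of all 18040 genes tested were called higher and 34.0% lower, at an adjusted p below 0.05 (limma, Benjamini-Hochberg over all genes tested). The median difference (log2) of the 34 genes was 2.06, against -0.01 over all genes tested. In 27 genes every knockdown library lay above every control library, against 30.8% of all genes tested, and in 2 every knockdown library lay below, against 28.7%. All 31 called genes had the same sign in each of the 4 batches that hold both groups. For the 27 and the 2 without overlap, that sign was fixed in advance by the same values. ITGAM and LAMB3 are the called genes whose groups overlap. The 29 and the 27 include ITGB6, which was tested only through knockdown and delta 22 libraries. ITGB2, LAMA2 and LAMC3 were not called. Quantile scaling shifted the median of all genes tested to -0.20 and changed the share of higher genes among all called genes to 38.0%, against 51.1% without it, with 28 of these genes then called higher and 3 lower.

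The wild-type construct lowered 24 of the 34 genes, all of them among the 29 raised, and 2 genes rose (32.3% and 29.6% of all genes tested were called lower and higher), with a median difference of -1.62. Quantile scaling shifted the median of all genes tested to 0.12 here, and higher genes made up 59.5% of all calls with it against 47.8% without; with it, 24 of these genes were lower and 4 higher. The mut9 construct lowered 23 and raised 4 (background 25.5% and 23.0%), with a median difference of -1.08. With delta 22, 1 gene was called higher and 1 lower (background 2.24% and 2.26%), with a median difference of -0.04. The 3 constructs are set against the same knockdown libraries, so these counts share them. ITGB6 is among the genes lowered by wild type and by mut9, though it was tested only through knockdown and delta 22 libraries. Batch by batch, the called genes kept their sign in 25 of 26 cases for the wild type, 26 of 27 for mut9 and 2 of 2 for delta 22. ITGAM was the exception for wild type and mut9. Where the groups of a gene did not overlap, its sign in each batch was fixed in advance by the same values.

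**Figure D1:**
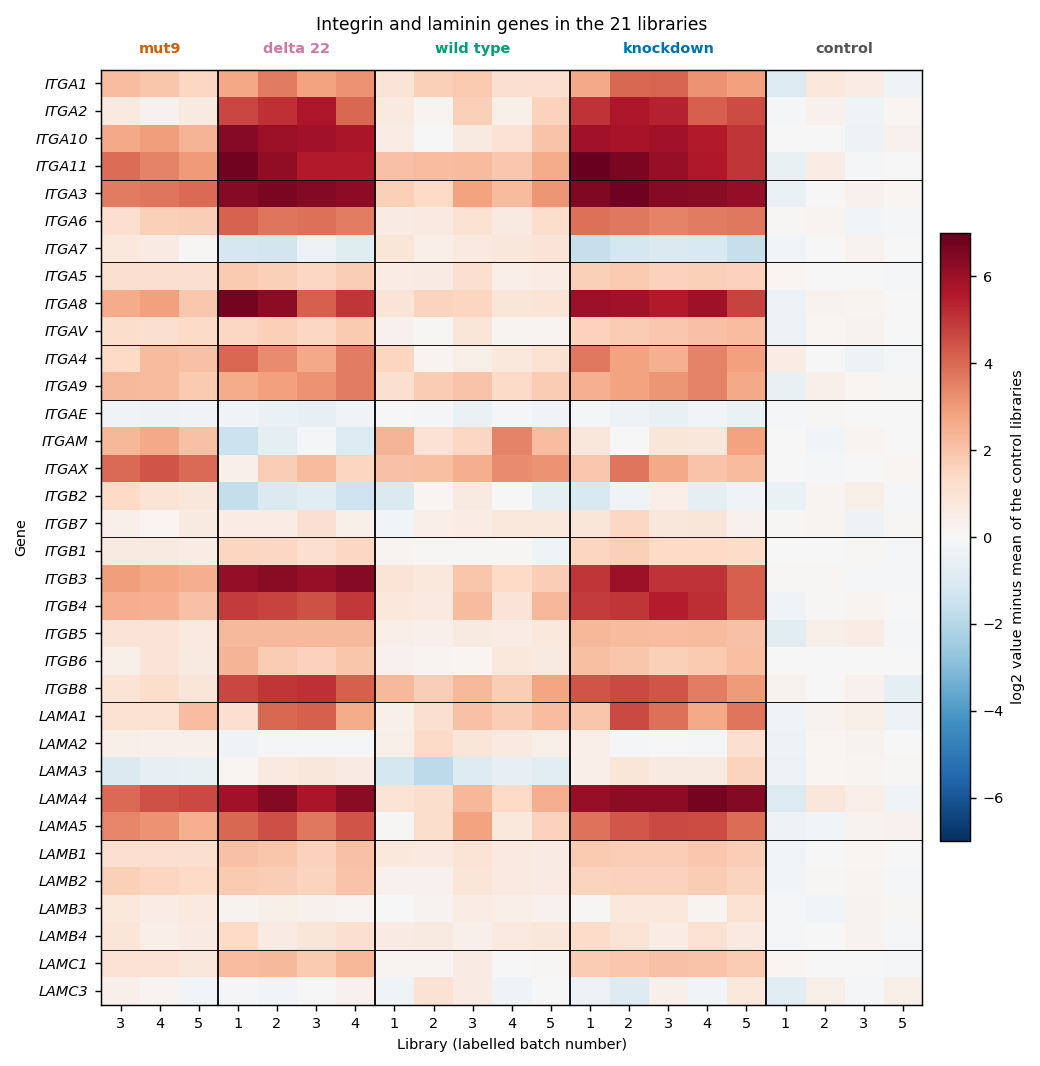
Each cell is the log2 value of 1 library minus the mean of the control libraries for that gene, with the 34 genes down the page grouped by role and the libraries across, from mut9 to control. Knockdown and delta 22 columns share high values for most integrins and laminins, while ITGA7, ITGAE, ITGB2, LAMA2 and LAMC3 are among the rows that do not follow this pattern.

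FLI1, whose reads include those of the fusion, served as the check of the labels and averaged 10.23 (log2) in mut9, 11.27 in delta 22, 10.47 in wild-type, 9.77 in knockdown and 11.64 in control libraries. Knockdown lowered it (-1.87 ± 0.10, adjusted p = 4.7e-12), and the wild-type construct left it below control (-1.16 ± 0.10, adjusted p = 7.19e-08). Delta 22 libraries held more of it than wild-type libraries (0.80 ± 0.10), while mut9 and wild-type libraries were not called different (-0.24 ± 0.11, adjusted p = 0.124). Between 16708 and 17326 genes reached the minimum in a library; sequencing depth is unknown, because the values are normalized log2 values. In bulk RNA, fewer cells with a transcript and less transcript per cell cannot be told apart.

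All 4 collagen-binding alpha subunits, ITGA1, ITGA2, ITGA10 and ITGA11, rose on knockdown and fell with the wild-type and the mut9 construct. They pair with beta 1 and recognise native collagens, ITGA2 on platelets and epithelia and ITGA11 on fibroblasts. ITGA11 read 8.57, 8.1 and 7.63 in the mut9 libraries, 11.37, 10.84, 10.19 and 10.2 in the delta 22 libraries, 6.7, 6.79, 6.87, 6.53 and 7.23 in the wild-type libraries, 11.54, 11.24, 10.72, 10.23 and 9.65 in the knockdown libraries and 4.14, 5.18, 4.57 and 4.66 in the control libraries (log2). Knockdown and delta 22 libraries lay above all others, mut9 libraries above all wild-type libraries, and wild-type libraries above all control libraries. The knockdown difference was 6.04 ± 0.33 (65.7-fold, adjusted p = 6.59e-12), the wild-type difference from knockdown -3.85 ± 0.31 and the mut9 difference from knockdown -2.58 ± 0.36.

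ITGA10, the collagen receptor alpha subunit of cartilage, read 8.18, 8.45 and 7.89 in the mut9 libraries, 11.9, 11.52, 11.4 and 11.24 in the delta 22 libraries, 6.05, 5.52, 6.16, 6.57 and 7.51 in the wild-type libraries, 11.4, 11.3, 11.39, 11.09 and 10.53 in the knockdown libraries and 5.52, 5.57, 5.2 and 5.85 in the control libraries. Here the wild-type libraries overlapped the control libraries, and the mut9 libraries lay between wild type and knockdown. Knockdown raised it 48.7-fold (adjusted p = 2.35e-12); the wild-type construct lowered it 27.4-fold and mut9 7.82-fold against knockdown. ITGA2 read 7.78, 7.38 and 7.71 in the mut9 libraries, 11.74, 12.19, 12.76 and 11.11 in the delta 22 libraries, 7.75, 7.27, 8.74, 7.51 and 8.67 in the wild-type libraries, 12.13, 12.76, 12.48, 11.26 and 11.65 in the knockdown libraries and 6.94, 7.36, 6.79 and 7.22 in the control libraries. Its mut9 and wild-type libraries overlapped (-0.37 ± 0.38, adjusted p = 0.548), and against knockdown it fell 21.5-fold with mut9 and 16.7-fold with wild type. ITGA1 averaged 11.31 ± 0.35 in mut9, 12.52 ± 0.43 in delta 22, 10.79 ± 0.38 in wild-type, 12.81 ± 0.66 in knockdown and 9.45 ± 0.78 in control libraries (SD). Exons of PELO, a ribosome rescue factor, overlap ITGA1 on the same strand, and PELO moved the same way by less (knockdown 0.74 ± 0.07, wild type against knockdown -0.76 ± 0.07).

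Of the laminin-binding alpha subunits, ITGA3 and ITGA6 rose on knockdown and ITGA7 fell. ITGA3, a receptor subunit for laminins of the skin and kidney, read 11.67, 11.77 and 11.98 in the mut9 libraries, 14.36, 14.58, 14.44 and 14.28 in the delta 22 libraries, 9.66, 9.41, 10.85, 10.2 and 11.09 in the wild-type libraries, 14.52, 14.81, 14.38, 14.33 and 14.15 in the knockdown libraries and 7.56, 8.03, 8.32 and 8.14 in the control libraries. Knockdown and delta 22 libraries overlapped one another and lay above every library of the other groups, and the control libraries were the lowest. Knockdown raised ITGA3 by 6.43 ± 0.25 (86.1-fold, adjusted p = 1.09e-13), the largest difference among the 34 genes. Against knockdown it fell 18.3-fold with the wild type and 6.21-fold with mut9. ITGA6, the partner of beta 4 in hemidesmosomes, averaged 11.73 ± 0.29 in mut9, 14.02 ± 0.23 in delta 22, 11.04 ± 0.27 in wild-type, 13.86 ± 0.15 in knockdown and 10.20 ± 0.16 in control libraries, with the smallest adjusted p on knockdown among these genes (3.66 ± 0.14, adjusted p = 7.94e-14).

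ITGA7, the laminin receptor subunit of skeletal muscle, moved the other way and read 9.18, 9.02 and 8.53 in the mut9 libraries, 7.28, 7.17, 8.05 and 7.6 in the delta 22 libraries, 9.3, 8.91, 9.14, 9.25 and 9.32 in the wild-type libraries, 6.84, 7.23, 7.44, 7.37 and 6.83 in the knockdown libraries and 8.24, 8.39, 8.67 and 8.46 in the control libraries. Knockdown and delta 22 libraries were the lowest and overlapped, and wild-type libraries lay above all control libraries. The differences were -1.30 ± 0.18 for knockdown (adjusted p = 2.35e-06), 2.04 ± 0.17 for wild type against knockdown (adjusted p = 4.5e-09) and 1.77 ± 0.20 for mut9 against knockdown (adjusted p = 5.17e-07). Exons of METTL7B and BLOC1S1 overlap ITGA7 on the opposite strand, and whether counting used strand is not given in the sources used here, so reads of these genes cannot be told apart from those of ITGA7. METTL7B moved the same way and further (knockdown -2.04 ± 0.17, wild type against knockdown 2.22 ± 0.16), and BLOC1S1 was lower on knockdown (-0.46 ± 0.13, adjusted p = 0.00473).

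The 3 tested alpha subunits that recognise the RGD motif of fibronectin and vitronectin, ITGA5, ITGA8 and ITGAV, rose on knockdown and fell with wild type and mut9. ITGA8 read 6.31, 6.62 and 5.61 in the mut9 libraries, 10.41, 9.98, 7.9 and 8.74 in the delta 22 libraries, 4.66, 5.29, 5.26, 4.56 and 4.68 in the wild-type libraries, 9.71, 9.63, 9.26, 9.68 and 8.47 in the knockdown libraries and 3.33, 3.98, 3.91 and 3.71 in the control libraries. It was close to the minimum in control libraries and 49.1-fold higher on knockdown (adjusted p = 1.87e-10), and the mut9 libraries lay between those of wild type and knockdown. ITGA5, the fibronectin receptor alpha subunit, averaged 13.40 ± 0.02 in mut9, 13.95 ± 0.16 in delta 22, 12.91 ± 0.28 in wild-type, 13.96 ± 0.08 in knockdown and 12.28 ± 0.11 in control libraries. ITGAV, which pairs with several beta subunits, averaged 13.32 ± 0.11, 13.70 ± 0.17, 12.41 ± 0.30, 13.99 ± 0.21 and 12.09 ± 0.29 in the same groups. Their rises were smaller than that of ITGA8, 1.68 ± 0.11 and 1.90 ± 0.15. Against control, ITGAV in wild-type libraries was not called different (0.31 ± 0.15, adjusted p = 0.101).

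ITGA4 and ITGA9, related subunits that bind VCAM1 and other ligands without the RGD motif, rose on knockdown and fell with both constructs. ITGA4 read 9.58, 10.36 and 10.22 in the mut9 libraries, 12.16, 11.45, 10.81 and 11.77 in the delta 22 libraries, 9.65, 8.37, 8.59, 8.9 and 9.25 in the wild-type libraries, 11.83, 10.99, 10.67, 11.64 and 11.06 in the knockdown libraries and 8.68, 8.12, 7.81 and 8.05 in the control libraries. The wild-type libraries overlapped the control libraries, and the lowest mut9 library lay below the highest wild-type library. Its differences were 3.07 ± 0.30 on knockdown (adjusted p = 1.82e-08), -2.29 ± 0.28 for wild type against knockdown and -1.19 ± 0.32 for mut9 against knockdown. ITGA9 averaged 7.63 ± 0.24 in mut9, 8.58 ± 0.41 in delta 22, 7.14 ± 0.36 in wild-type, 8.43 ± 0.38 in knockdown and 5.54 ± 0.38 in control libraries. Its call for mut9 against knockdown (-0.80 ± 0.25, adjusted p = 0.0137) was lost without mut9 replicate 5 (adjusted p 0.0766).

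The 5 integrin genes known from leukocytes did not move together: on knockdown ITGAM, ITGAX and ITGB7 were higher, ITGAE was lower and ITGB2 was not called. ITGB2 encodes the common beta chain with which ITGAM and ITGAX pair on myeloid cells. ITGAX read 7.65, 8.1 and 7.67 in the mut9 libraries, 4.06, 5.4, 5.91 and 5.23 in the delta 22 libraries, 5.73, 5.83, 6.23, 7.02 and 6.85 in the wild-type libraries, 5.58, 7.46, 6.33, 5.71 and 5.92 in the knockdown libraries and 3.69, 3.6, 3.68 and 3.84 in the control libraries. All groups were above control, and the mut9 libraries were above every other library. ITGAX rose on knockdown (2.50 ± 0.37, adjusted p = 5.76e-06) and rose further with mut9 (1.60 ± 0.40 against knockdown, adjusted p = 0.00268), while wild type and knockdown were not called different (0.13 ± 0.35, adjusted p = 0.763). In batches 3 to 5 alone ITGAX was called higher with wild type than with knockdown (0.71, adjusted p = 0.0416).

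ITGB2 read 9.47, 9.05 and 8.87 in the mut9 libraries, 6.43, 7.09, 7.29 and 6.62 in the delta 22 libraries, 7.04, 8.2, 8.68, 8.12 and 7.38 in the wild-type libraries, 7.03, 7.82, 8.54, 7.43 and 7.75 in the knockdown libraries and 7.6, 8.28, 8.46 and 7.96 in the control libraries. Every mut9 library was above every library of the other groups, and every delta 22 library was below every control library. The wild-type and knockdown libraries overlapped both. ITGB2 rose with mut9 against knockdown (1.41 ± 0.34, adjusted p = 0.00198), and its knockdown difference was -0.36 ± 0.31 (adjusted p = 0.317). With quantile scaling it was called lower on knockdown (-0.69, adjusted p = 0.041). With the replicate number as a block, delta 22 was also called lower than knockdown (-0.90, adjusted p = 0.00299, against -0.86 and 0.126 without the block). ITGB2-AS1 overlaps ITGB2 on the opposite strand, and reads cannot be told apart without strand; it differed by -2.61 ± 0.28 on knockdown, 1.20 ± 0.26 for wild type and 1.37 ± 0.30 for mut9 against knockdown.

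ITGAM read 7.76, 8.11 and 7.49 in the mut9 libraries, 3.94, 4.85, 5.34 and 4.52 in the delta 22 libraries, 7.81, 6.48, 6.93, 8.95 and 7.62 in the wild-type libraries, 6.27, 5.51, 6.33, 6.26 and 8.25 in the knockdown libraries and 5.46, 5.28, 5.66 and 5.43 in the control libraries. The delta 22 libraries lay below every knockdown library, and the wild-type and mut9 libraries overlapped. Its calls were marginal: 1.07 ± 0.46 on knockdown (adjusted p = 0.0468), 1.03 ± 0.44 for wild type (adjusted p = 0.0471), 1.26 ± 0.50 for mut9 (adjusted p = 0.0449) and -1.86 ± 0.46 for delta 22 (adjusted p = 0.0257), the last 3 against knockdown. The knockdown call was lost without knockdown replicate 1, 3, 4 or 5 or control replicate 1, 2, 3 or 5 (adjusted p 0.0517 to 0.154), the wild-type call without wild-type replicate 1, 4 or 5 or knockdown replicate 1, 2, 3 or 4 (adjusted p 0.0729 to 0.16), the mut9 call without mut9 replicate 3, 4 or 5 or knockdown replicate 1, 2, 3 or 4 (adjusted p 0.061 to 0.145) and the delta 22 call without delta 22 replicate 1, 2 or 4 or knockdown replicate 5 (adjusted p 0.0511 to 0.0998). The block ended the calls on knockdown (adjusted p = 0.0619) and with mut9 (adjusted p = 0.108).

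ITGAE, the alpha subunit of lymphocytes in epithelia, read 9.06, 8.93 and 9.09 in the mut9 libraries, 8.99, 8.84, 8.74 and 9.0 in the delta 22 libraries, 9.3, 9.21, 8.85, 9.19 and 9.05 in the wild-type libraries, 9.17, 8.96, 8.77, 9.13 and 8.86 in the knockdown libraries and 9.24, 9.38, 9.32 and 9.3 in the control libraries. Knockdown libraries lay below all control libraries, by a small difference (-0.33 ± 0.10, adjusted p = 0.00522) that was -0.55 with quantile scaling. HASPIN, a mitotic kinase gene that lies within ITGAE on the opposite strand, was lower by more (-0.61 ± 0.08), and the reads cannot be told apart without strand. ITGB7, which pairs with ITGAE and ITGA4, reached the minimum in 15 libraries and averaged 3.97 ± 0.41 in knockdown and 3.11 ± 0.24 in control libraries. Of 9 leukocyte markers 4 were tested (1 higher and 1 lower on knockdown), and CD3E, CD2, MS4A1, LYZ and TYROBP were below the minimum in every library. Summed on the linear scale, the leukocyte markers lay between 254 and 266 in mut9, 230 and 306 in delta 22, 169 and 209 in wild-type, 192 and 301 in knockdown and 210 and 277 in control libraries. Their part in these differences was not tested.

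Of the beta subunits not typical of leukocytes, ITGB1, ITGB3, ITGB4, ITGB5 and ITGB8 rose on knockdown and fell with wild type and with mut9, and ITGB6 is described below. ITGB3, the beta chain of the vitronectin receptor, read 6.14, 5.91 and 5.76 in the mut9 libraries, 9.39, 9.54, 9.34 and 9.59 in the delta 22 libraries, 4.19, 3.96, 5.18, 4.6 and 4.97 in the wild-type libraries, 8.25, 9.21, 8.26, 8.26 and 7.43 in the knockdown libraries and 3.33, 3.33, 3.17 and 3.07 in the control libraries. Control libraries were around the minimum, and delta 22 libraries lay above every knockdown library. The knockdown difference was 5.06 ± 0.27 (33.3-fold, adjusted p = 4.17e-12). Delta 22 was higher than knockdown by 1.18 ± 0.27 (adjusted p = 0.0148), a call lost in batches 3 to 5 alone (adjusted p = 0.0625) and in a fit of these 2 groups alone (adjusted p = 0.0665).

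ITGB4, the hemidesmosome subunit that pairs with ITGA6, read 7.78, 7.76 and 7.31 in the mut9 libraries, 10.17, 9.97, 9.74 and 10.22 in the delta 22 libraries, 6.0, 5.92, 7.48, 6.15 and 7.6 in the wild-type libraries, 10.18, 10.26, 10.78, 10.43 and 9.44 in the knockdown libraries and 5.0, 5.33, 5.46 and 5.26 in the control libraries. Wild-type libraries spread over more than 1 unit, 2 of them within the range of the mut9 values, and all control libraries were lower. It rose 31-fold on knockdown (adjusted p = 5.69e-11) and fell 12-fold with wild type and 6.07-fold with mut9. The difference between mut9 and wild type was not called (0.98 ± 0.34, adjusted p = 0.0509); it was called without wild-type replicate 3 (adjusted p = 0.0152) or 5 (adjusted p = 0.0125). It was also called with array weights (1.2, adjusted p = 0.0023) and with a mean of at least 100 (adjusted p = 0.0438).

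ITGB8, a beta subunit that pairs with ITGAV and binds latent TGF-beta, read 8.05, 8.3 and 7.93 in the mut9 libraries, 11.72, 12.07, 12.17 and 11.26 in the delta 22 libraries, 9.32, 8.8, 9.33, 8.8 and 9.85 in the wild-type libraries, 11.46, 11.68, 11.49, 10.65 and 10.03 in the knockdown libraries and 7.34, 7.09, 7.39 and 6.46 in the control libraries. Its mut9 libraries lay below every wild-type library, which held for no other of the 34 genes, and its wild-type libraries stayed above every control library. Knockdown raised it by 3.99 ± 0.30 (adjusted p = 6.41e-10); against knockdown it fell by 3.58-fold with wild type and 7.83-fold with mut9. ITGB1, the most widely shared beta chain, averaged 14.91 ± 0.07 in mut9, 15.71 ± 0.14 in delta 22, 14.32 ± 0.17 in wild-type, 15.75 ± 0.14 in knockdown and 14.30 ± 0.06 in control libraries. Wild type and control were not called different (0.02 ± 0.09, adjusted p = 0.896). ITGB5 averaged 12.49 ± 0.12, 13.92 ± 0.01, 12.19 ± 0.15, 13.85 ± 0.12 and 11.64 ± 0.60 in the same order of groups. ITGB6, an epithelial subunit, reached the minimum in 9 libraries, which are the 4 delta 22 and 5 knockdown libraries, and its highest value was 4.51. It was called in the same directions as the other 5, but it was tested only through the groups in which it was high. ITGB1-DT, a divergent transcript whose exons overlap ITGB1 on the opposite strand, moved with it (2.56 ± 0.23 on knockdown, -1.87 ± 0.22 for wild type against knockdown).

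**Figure D2:**
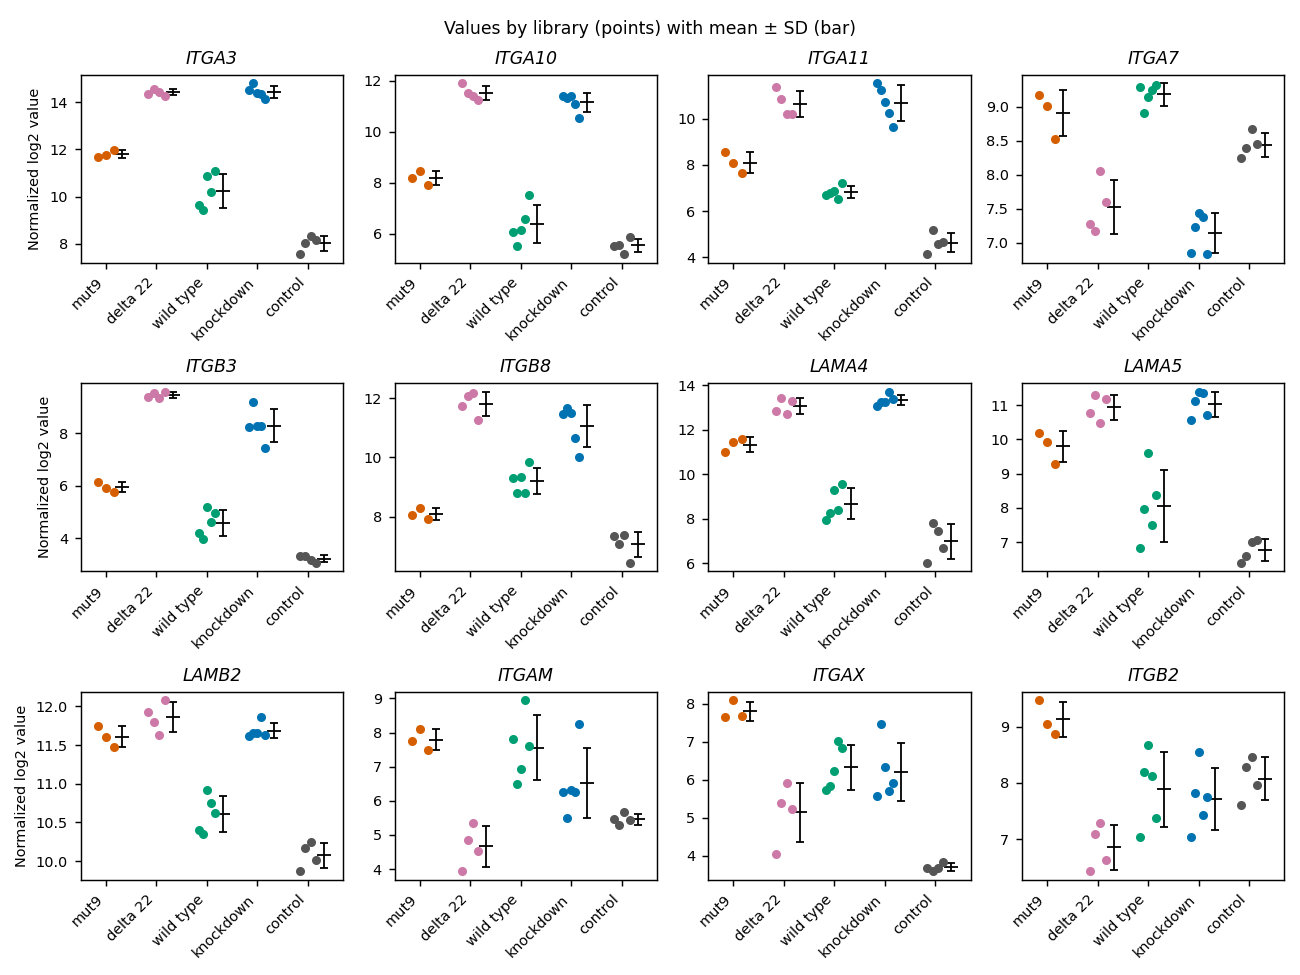
Dots are the log2 values of single libraries and bars the group mean ± SD for 12 of the genes, with groups from mut9 on the left to control on the right. Delta 22 and knockdown libraries lie together in ITGA3, LAMA4, ITGA10 and LAMB2, LAMB2 mut9 libraries are at the knockdown level, and ITGB8 mut9 libraries lie below those of the wild type.

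Of the 11 laminin chains 9 rose on knockdown, and LAMA2 and LAMC3 were not called; none fell (limma, and 0 at an unadjusted p below 0.05). LAMA4, the alpha chain of vessels and mesenchyme, read 10.99, 11.44 and 11.6 in the mut9 libraries, 12.86, 13.43, 12.71 and 13.3 in the delta 22 libraries, 7.95, 8.25, 9.31, 8.38 and 9.56 in the wild-type libraries, 13.09, 13.24, 13.25, 13.72 and 13.4 in the knockdown libraries and 6.04, 7.8, 7.48 and 6.68 in the control libraries. Knockdown and delta 22 libraries overlapped at the top, and the mut9, wild-type and control libraries followed below them with no overlap between these 3 groups. Knockdown raised LAMA4 by 6.34 ± 0.33 (81-fold, adjusted p = 3.42e-12). It fell 25.1-fold with wild type and 3.99-fold with mut9 against knockdown.

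LAMA5, the alpha chain of most adult basement membranes, read 10.17, 9.92 and 9.29 in the mut9 libraries, 10.77, 11.29, 10.47 and 11.18 in the delta 22 libraries, 6.83, 7.98, 9.6, 7.5 and 8.38 in the wild-type libraries, 10.56, 11.11, 11.37, 11.35 and 10.7 in the knockdown libraries and 6.41, 6.61, 7.02 and 7.06 in the control libraries. One wild-type library, replicate 3, lay within the mut9 range, and the others lay below it. It rose 18.9-fold on knockdown (adjusted p = 5.73e-09) and fell with wild type (-2.96 ± 0.35, adjusted p = 5.75e-07). Its fall with mut9 (-1.23 ± 0.41, adjusted p = 0.0176) was not called without mut9 replicate 5 (adjusted p 0.0998). LAMA1, the alpha chain of the early embryo, read 4.23, 4.22 and 5.35 in the mut9 libraries, 4.37, 7.17, 7.35 and 5.8 in the delta 22 libraries, 3.51, 4.3, 5.25, 4.92 and 5.36 in the wild-type libraries, 5.1, 7.81, 7.03, 5.85 and 6.91 in the knockdown libraries and 2.94, 3.41, 3.58 and 2.78 in the control libraries. Values within each group spread widely, and the knockdown libraries all lay above the control libraries. Its differences were 3.36 ± 0.57 on knockdown (adjusted p = 3.06e-05), -1.87 ± 0.54 with wild type and -1.94 ± 0.62 with mut9 (adjusted p = 0.0145), the last of which was not called without mut9 replicate 3 or 4 (adjusted p 0.0613 to 0.0623).

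LAMA3, the alpha chain of epithelial laminin, averaged 7.36 ± 0.25 in mut9, 8.60 ± 0.30 in delta 22, 7.0 ± 0.50 in wild-type, 8.89 ± 0.43 in knockdown and 8.06 ± 0.28 in control libraries (SD). It rose by 0.83 ± 0.24 on knockdown (0.53 with quantile scaling), and the wild-type libraries ended below the control libraries. LAMA2, the alpha chain of muscle, averaged 7.61 ± 0.03, 7.07 ± 0.07, 7.97 ± 0.39, 7.51 ± 0.53 and 7.23 ± 0.26 in the same groups, with a knockdown difference of 0.28 ± 0.22 (adjusted p = 0.28).

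Among the beta chains, LAMB2, found at synapses and in the kidney filter, read 11.75, 11.6 and 11.48 in the mut9 libraries, 11.93, 11.8, 11.63 and 12.08 in the delta 22 libraries, 10.4, 10.35, 10.92, 10.75 and 10.62 in the wild-type libraries, 11.62, 11.66, 11.66, 11.86 and 11.63 in the knockdown libraries and 9.87, 10.17, 10.24 and 10.01 in the control libraries. The mut9 libraries overlapped the knockdown libraries, all wild-type libraries lay below both, and control libraries were the lowest. LAMB2 rose 3.06-fold on knockdown (adjusted p = 2e-10) and fell 2.11-fold with wild type, while its difference between mut9 and knockdown was -0.07 ± 0.12 (adjusted p = 0.662). LAMB1, the most common beta chain, averaged 14.27 ± 0.05 in mut9, 15.03 ± 0.20 in delta 22, 13.85 ± 0.15 in wild-type, 14.88 ± 0.08 in knockdown and 13.12 ± 0.13 in control libraries. LAMB3, an epithelial chain, rose by 0.56 ± 0.15 on knockdown with overlapping groups and was called neither with mut9 nor with wild type. LAMB4 stayed between 3.18 and 4.71 in all libraries, close to the minimum.

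Of the gamma chains, LAMC1, part of most laminin trimers, read 14.39, 14.38 and 14.16 in the mut9 libraries, 15.55, 15.65, 15.2 and 15.71 in the delta 22 libraries, 13.57, 13.59, 13.97, 13.42 and 13.45 in the wild-type libraries, 15.17, 15.26, 15.44, 15.39 and 15.13 in the knockdown libraries and 13.51, 13.42, 13.34 and 13.22 in the control libraries. Wild-type libraries overlapped the control libraries, and mut9 libraries lay between wild type and knockdown. It rose 3.75-fold on knockdown (adjusted p = 1.77e-11) and fell 3.2-fold with wild type and 1.96-fold with mut9. LAMC3 lay between 3.22 and 5.13 and was not called in any of these comparisons.

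**Figure D3:**
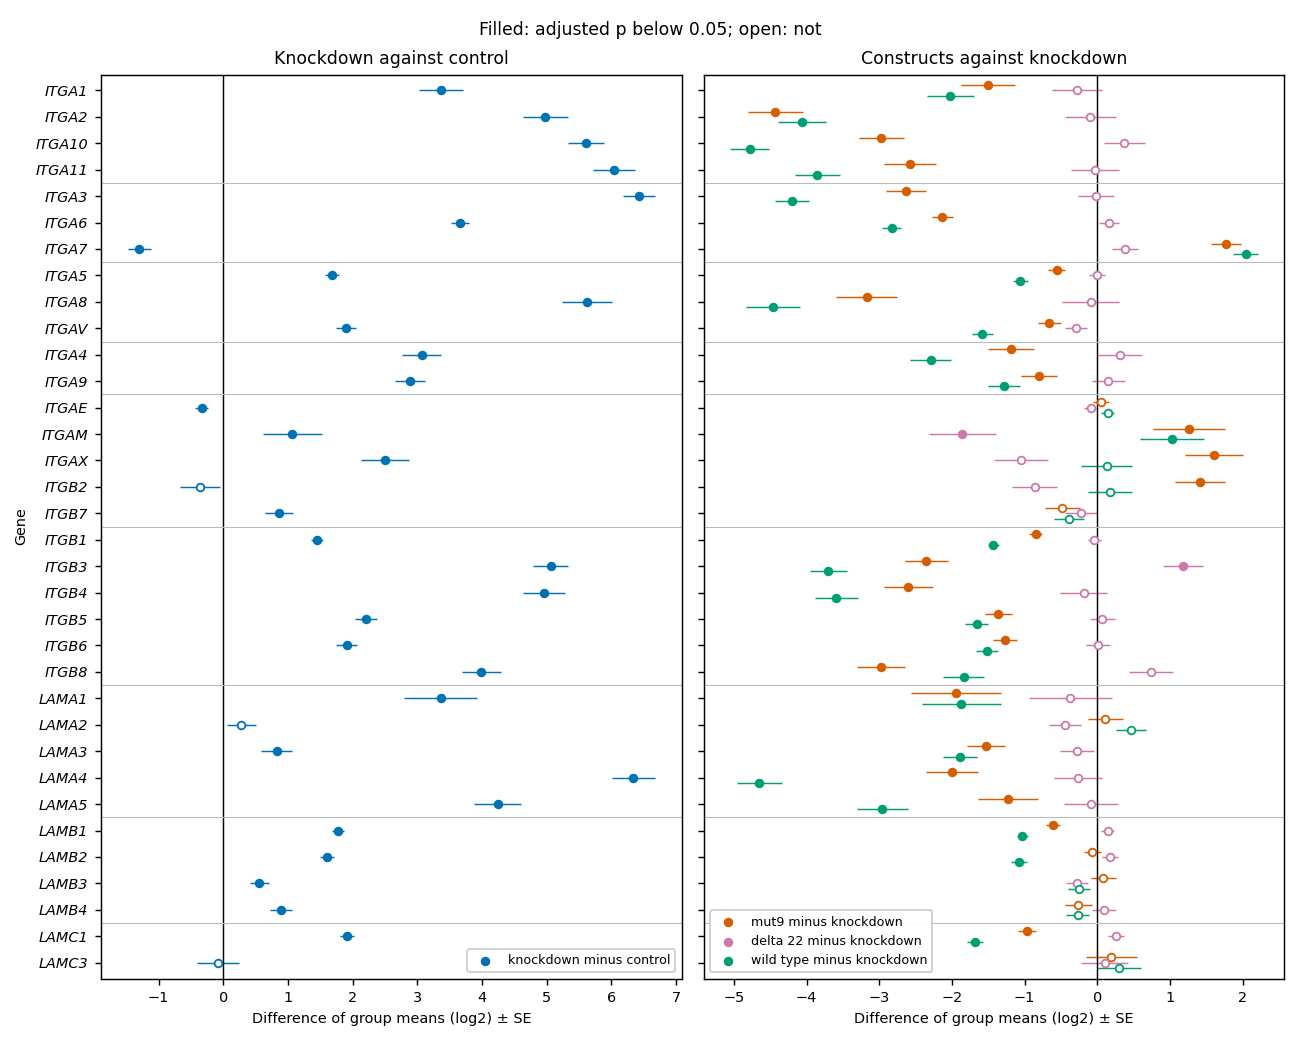
Differences of group means (log2, bars are the standard error) are drawn for each gene, knockdown minus control on the left and each construct minus knockdown on the right; filled points have an adjusted p below 0.05. Most integrins and laminins lie right of 0 on the left panel, and on the right panel 26 of 34 mut9 and 27 of 34 wild-type points lie left of 0. Of the delta 22 points 14 lie right and 20 left of 0, and ITGB3 (1.18) and ITGAM (-1.86) are the 2 filled ones.

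Most of these genes differed from the control level in wild-type libraries. Against control, 24 genes were higher and 1 was lower in wild-type libraries (21.3% and 18.3% of all genes tested), with a median difference of 0.76. Higher genes made up 42.7% of all calls in this comparison with quantile scaling against 53.7% without, and 19 of these genes were then higher and 1 lower. Of the 24 genes that knockdown raised and wild type lowered, 19 remained above control, among them ITGA3 (2.23 ± 0.25, adjusted p = 2.02e-06), ITGA11 (2.19 ± 0.33, adjusted p = 3.97e-05) and ITGB8 (2.15 ± 0.30, adjusted p = 1.93e-05). No share is given here over all genes that met the same conditions, so the 19 cannot be set against one. ITGB1 (0.02), LAMC1 (0.23), ITGAV (0.31) and ITGB6 (0.39) were not called, though LAMC1 was with quantile scaling (0.32, adjusted p = 0.0127). The other genes above control include ITGA7, which knockdown lowered, LAMA2, not called on knockdown, and ITGAM, called higher with wild type than with knockdown. ITGAX and LAMB4, also above control, were not called different between wild type and knockdown. LAMA3 was below control (-1.06 ± 0.24, adjusted p = 0.0019). FLI1 was also lower in wild-type than in control libraries, as given above, and its part in this difference was not tested.

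Several of these 24 calls depended on single libraries. ITGA2 (0.91 ± 0.35) was not called without wild-type replicate 3 or 5 or control replicate 1, 3 or 5 (adjusted p 0.0618 to 0.114), ITGA4 (0.78 ± 0.30) without wild-type replicate 1, 4 or 5 or control replicate 2, 3 or 5 (adjusted p 0.0573 to 0.118) and LAMA1 (1.49 ± 0.57) without wild-type replicate 3, 4 or 5 or control replicate 1, 2, 3 or 5 (adjusted p 0.0538 to 0.107). ITGA8 (1.16 ± 0.39) was not called without wild-type replicate 2 or 3 or control replicate 1 (adjusted p 0.0515 to 0.0716), ITGA10 (0.83 ± 0.28) without wild-type replicate 4 or 5 or control replicate 1 or 3 (adjusted p 0.051 to 0.0787), ITGB5 (0.55 ± 0.17) without control replicate 1 or 5 (adjusted p 0.0503 to 0.0649) and LAMA2 (0.73 ± 0.22) without control replicate 1 (adjusted p 0.053). The ITGB5 difference itself was 0.28 without control replicate 1 and 0.24 with array weights (adjusted p = 0.187), and that of ITGA10 was 0.54 without wild-type replicate 5. Within the 4 shared batches, 22 of the 25 called genes had the same sign in each, the exceptions being ITGA2, ITGA10 and ITGB5. That sign was fixed in advance for genes whose groups did not overlap. In a fit of batches 3 to 5 alone, of which these groups share batches 3 and 5, 18 genes were called higher. This count has no share over all genes of the same fit beside it and cannot be judged against it.

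Compared directly, 17 of the 34 genes were higher in mut9 than in wild-type libraries and 1, ITGB8, was lower (11.2% and 7.61% of all genes tested), with a median difference of 0.51. Higher genes made up 43.9% of all calls in this comparison with quantile scaling against 59.5% without, and 17 of these genes were still called higher and 1 lower. Of the 23 genes lowered by both constructs, 14 were higher with mut9 than with wild type: ITGA3, ITGA4, ITGA5, ITGA6, ITGA8, ITGA10, ITGA11, ITGAV, ITGB1, ITGB3, LAMA4, LAMA5, LAMB1 and LAMC1. The other 3 were LAMB2, which mut9 did not lower, and ITGAX and ITGB2, which mut9 raised. Among all genes lowered by both constructs, the share higher with mut9 than with wild type is not given here. The 14 therefore cannot be set against it. The difference was 2.65 ± 0.36 for LAMA4 (6.29-fold, adjusted p = 9.96e-05), 1.81 ± 0.31 for ITGA10 (adjusted p = 0.000617), 1.56 ± 0.28 for ITGA3 (adjusted p = 0.000859), 1.36 ± 0.29 for ITGB3 (adjusted p = 0.00328) and 1.00 ± 0.12 for LAMB2 (adjusted p = 4.11e-05). All 18 had the same sign in batches 3, 4 and 5, which hold both groups. That sign was fixed in advance for those of the 18 whose groups did not overlap. The wild-type means also include batches 1 and 2, which hold no mut9 library. Within the shared batches the differences were 1.68 to 3.06 for LAMA4, 0.38 to 2.02 for ITGA10 and 0.82 to 1.56 for ITGA3. They were 0.79 to 1.31 for ITGB3 and 0.83 to 0.87 for LAMB2.

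Other differences between the constructs were 1.73 ± 0.41 for LAMA5 (adjusted p = 0.00627; 0.0564 in a fit of these 2 groups alone), 1.47 ± 0.40 for ITGAX (adjusted p = 0.0156), 1.29 ± 0.42 for ITGA8, 1.28 ± 0.36 for ITGA11, 1.25 ± 0.34 for ITGB2 and 1.10 ± 0.32 for ITGA4. The call of ITGB8 (-1.13 ± 0.33, adjusted p = 0.0219) was lost without mut9 replicate 3 or 5 or wild-type replicate 5 (adjusted p 0.0507 to 0.0782). That of ITGA4 was lost without mut9 replicate 4 or 5 or wild-type replicate 2 (adjusted p 0.0517 to 0.109), that of ITGA8 without mut9 replicate 3 or 4 or wild-type replicate 1, 4 or 5 (adjusted p 0.0684 to 0.173), that of ITGA11 without mut9 replicate 3 or 4 (adjusted p 0.0595 to 0.115), that of ITGAX without mut9 replicate 4 (adjusted p 0.0776) and that of ITGB2 without mut9 replicate 3 (adjusted p 0.0919). In batches 3 to 5 alone, 12 genes were called higher and 0 lower. The calls lost were those of ITGA5, ITGA6, ITGB2, LAMA5, LAMB1 and ITGB8 (adjusted p 0.0509 to 0.0853). The share of all genes called in that fit is not given here, so these counts cannot be set against it.

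**Figure D4:**
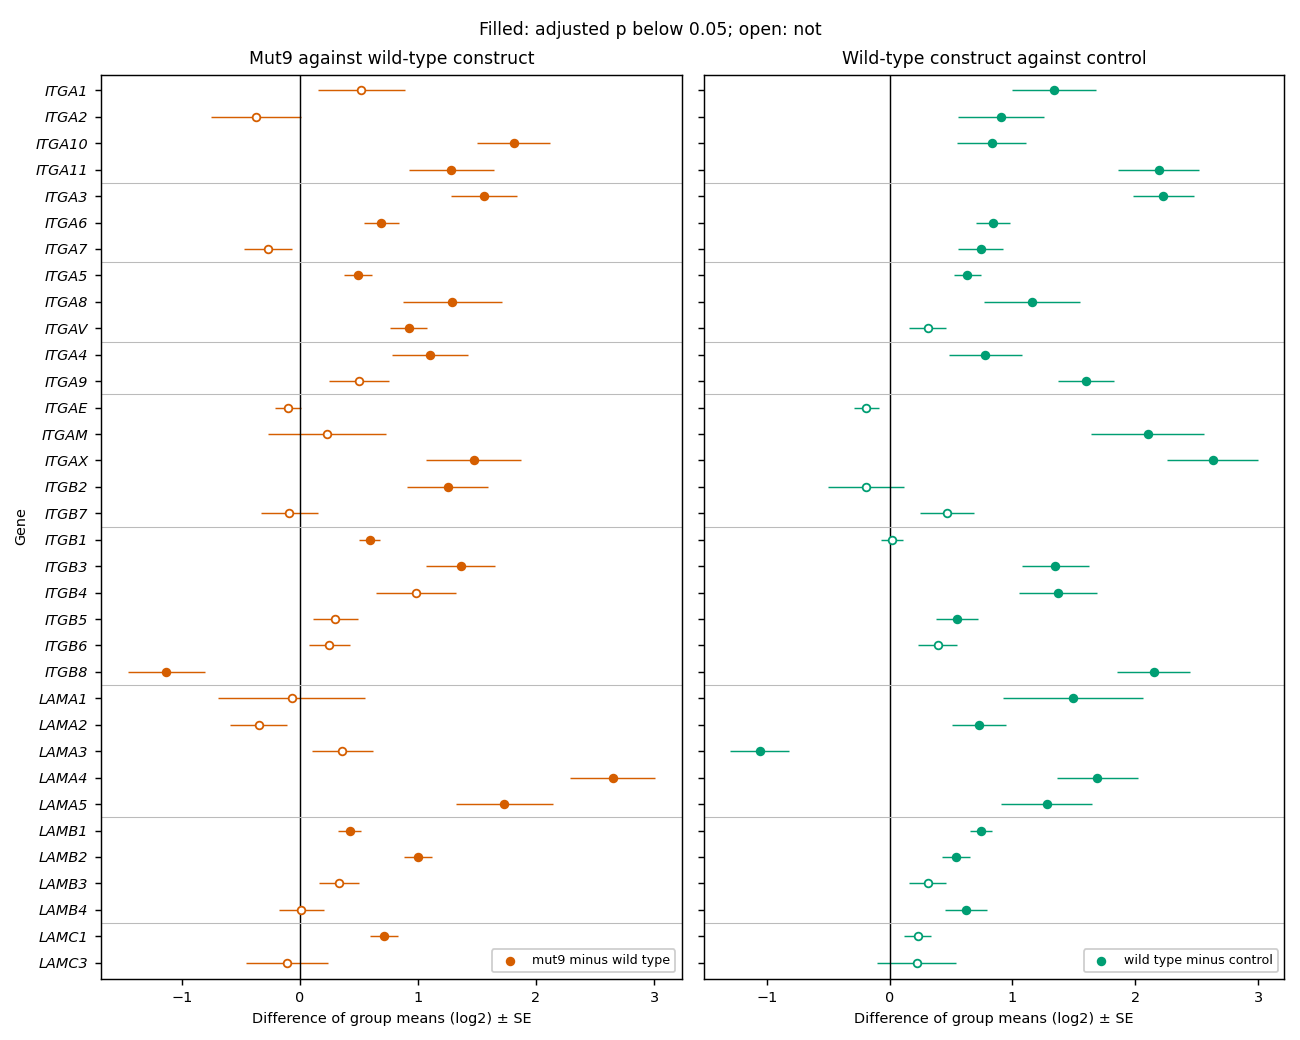
Differences of group means (log2, bars are the standard error) for each gene are drawn as mut9 minus wild type on the left and wild type minus control on the right; filled points have an adjusted p below 0.05. LAMA4 is furthest right on the left panel at 2.65 and ITGB8 furthest left at -1.13, and on the right panel LAMA3 is the filled point left of 0.

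Delta 22 and knockdown libraries were not called different in 32 of the 34 genes, near the share over all genes tested, of which 2.24% were called higher and 2.26% lower. Delta 22 libraries held more FLI1 than knockdown libraries (1.5 ± 0.10, adjusted p = 5.18e-08). For ITGA3 the difference was -0.02 ± 0.25, for LAMA4 -0.27 ± 0.33, for ITGA10 0.37 ± 0.28 and for ITGB1 -0.04 ± 0.09. Set against wild type, delta 22 gave 24 genes higher and 6 lower (31.7% and 29.5% of all genes tested), with a median difference of 1.52. The 24 include ITGB6, which was tested only through delta 22 and knockdown libraries. Higher genes made up 41.9% of all calls here with quantile scaling against 51.9% without, and 25 of these genes were then higher and 6 lower. The 6 lower genes were ITGA7 (-1.66 ± 0.18), ITGAM (-2.89 ± 0.46), ITGAX (-1.18 ± 0.37), ITGB2 (-1.03 ± 0.31), LAMA2 (-0.89 ± 0.22) and ITGAE (-0.23 ± 0.10). The calls of ITGAE, ITGAX and LAMA1 (1.5 ± 0.57) were lost without delta 22 replicate 2 or 3 or wild-type replicate 1, 2, 4 or 5 (adjusted p 0.0508 to 0.156), delta 22 replicate 1 (adjusted p 0.0544) and delta 22 replicate 2 or 3 or wild-type replicate 1 or 2 (adjusted p 0.0568 to 0.12).

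Proteins that link integrins to actin or sit beside them in the membrane were read from a list of 41 genes, of which 39 were tested (not TNS4 and APBB1IP). On knockdown 33 were higher and 2 lower (35.5% and 34.0% of all genes tested), with a median difference of 0.90. The wild-type construct lowered 31 and raised 3 (32.3% and 29.6% of all genes, median -0.57), and mut9 lowered 21 and raised 3 (25.5% and 23.0% of all genes, median -0.35). CD82, a tetraspanin, averaged 7.96 in wild-type, 12.82 in knockdown and 6.59 in control libraries, and knockdown raised it by 6.22 ± 0.32 (adjusted p = 2.69e-12). CD9, another tetraspanin, rose by 4.28 ± 0.23, BCAR1, an adaptor phosphorylated downstream of integrins, by 2.08 ± 0.12, and the actin crosslinker ACTN1 by 1.54 ± 0.09. With wild type CD82 fell (-4.85 ± 0.30), as did CD9 (-3.06 ± 0.22) and BCAR1 (-1.52 ± 0.11). TNS1, a tensin that binds beta tails, rose with wild type (1.20 ± 0.09) and with mut9 (1.46 ± 0.11). With mut9, BCAR1 (-1.32 ± 0.13), RAP1B, a small GTPase that activates integrins (-0.61 ± 0.06), and ZYX, a focal adhesion protein (-1.03 ± 0.12), fell. Against knockdown, delta 22 raised 1 of the 39 (2.56%) and lowered 0, near the share over all genes tested (2.24% higher and 2.26% lower). The median difference was 0.14, against 0.01 over all genes tested, with 32 of the 39 differences above 0 and 6 below. The gene raised was ITGB1BP1, which binds the beta 1 tail (0.29 ± 0.07, adjusted p = 0.0163). VCL (0.37), ACTN4 (0.28) and TNS3 (1.30) were not called. Wild type exceeded control in ZYX (1.27 ± 0.11), CRK (0.26 ± 0.04), RAP1B (0.32 ± 0.06) and PTK2B (1.25 ± 0.22). Mut9 exceeded wild type in CD82 (2.07 ± 0.35), CD9 (1.25 ± 0.25) and the tensin TNS2 (1.24 ± 0.19) and was lower in ZYX (-0.63 ± 0.12). Delta 22 exceeded wild type in CD9 (2.99 ± 0.23), BCAR1 (1.55 ± 0.12), ACTN1 (1.23 ± 0.09) and ACTN4 (1.15 ± 0.08).

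Other basement membrane proteins and laminin receptors were read from a list of 29 genes, of which 25 were tested (not COL4A3, SGCA, SGCD and SMOC1). On knockdown 17 were higher and 2 lower (35.5% and 34.0% of all genes tested, median 1.08). Wild type lowered 16 and raised 2 (32.3% and 29.6% of all genes, median -1.0), and mut9 lowered 12 and raised 3 (25.5% and 23.0% of all genes, median -0.44). NTN4, a netrin with a laminin-like domain, averaged 12.09 in knockdown and 9.57 in control libraries (2.52 ± 0.10, adjusted p = 1.2e-13), and fell with wild type (-2.91 ± 0.09) and with mut9 (-1.06 ± 0.11). NID1, the nidogen that ties laminin to collagen IV, rose by 4.54 ± 0.22 and fell with wild type (-3.14 ± 0.21) and mut9 (-1.46 ± 0.24). FBLN2 and TINAGL1, both secreted proteins of basement membranes, rose by 4.16 ± 0.28 and 4.48 ± 0.32. Wild type also lowered the collagens COL18A1 (-2.19 ± 0.18) and COL17A1 (-3.20 ± 0.29), and mut9 lowered COL17A1 (-2.90 ± 0.33) and TINAGL1 (-2.40 ± 0.35). Against knockdown, delta 22 raised 1 of the 25 and lowered 1 (2.24% and 2.26% of all genes tested). These were EGFLAM (0.61 ± 0.13, adjusted p = 0.00934) and NID1 (-1.0 ± 0.22, adjusted p = 0.0137), while HSPG2 (-0.63) was not called. Wild type exceeded control in SMOC2 (2.62 ± 0.36), NTN1 (1.58 ± 0.30), FBLN2 (1.46 ± 0.28) and NID1 (1.40 ± 0.22). Mut9 exceeded wild type in NTN4 (1.85 ± 0.11), NID1 (1.68 ± 0.24), FBLN2 (1.64 ± 0.30) and COL18A1 (1.34 ± 0.21). Delta 22 exceeded wild type in COL17A1 (3.34 ± 0.31), NTN4 (3.03 ± 0.10), NID1 (2.14 ± 0.22) and COL18A1 (1.96 ± 0.19).

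Markers of other cell types that use these genes were read in the same libraries. Of 7 endothelial markers listed, 5 were tested and 4 rose on knockdown. Their linear sum was 373 to 436 in mut9, 1878 to 2685 in delta 22, 246 to 536 in wild-type, 658 to 1647 in knockdown and 69.3 to 107 in control libraries. All 8 smooth muscle and fibroblast markers were tested, and 6 rose and 1 fell on knockdown. Their sum was 10725 to 11013 in mut9, 8548 to 26424 in delta 22, 4868 to 6972 in wild-type, 9418 to 18078 in knockdown and 2689 to 3520 in control libraries. Of 8 epithelial markers 5 were tested, 2 higher and 1 lower, with EPCAM, CDH1 and KRT5 below the minimum. The epithelial sum was 12115 to 14682 in mut9, 7923 to 13726 in delta 22, 7015 to 10901 in wild-type, 7673 to 11303 in knockdown and 6708 to 10653 in control libraries. Of 5 platelet markers, ITGA2B among them, 1 was tested and it was lower on knockdown. Among 7 markers of Ewing sarcoma lines, 6 were tested and all 6 fell on knockdown. CD99 was listed at 0 in every library. These values do not show whether its reads were counted, so the 0 need not mean that its RNA was absent. The part of these markers in the integrin and laminin differences was not tested. By the annotation (GENCODE 29), exons of 21 of the 36 genes overlap those of another gene, 18 of them on the opposite strand.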

How the data were processed

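RNA of A673 cells was sequenced from ScriptSeq libraries, made from 2.5 ug of total RNA with on-column DNase treatment, per the labels' protocols. The submitters' processing notes name bcl2fastq, STAR 2.5.2b, HTSeq, DESeq2 and hg19, without roles. The authors deposited normalized log2 values (-4.09 to 20.2; 17358 genes at 0 everywhere), in which depth and whole reads are not kept and which are not scaled to gene length, so levels are compared between libraries only. No pseudocount or logarithm was applied to them. Ensembl identifiers were joined to symbols of GENCODE 29 (51996 matched, 5824 not).

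Testing covered the 18040 genes at or above log2(10) in 3 or more libraries. The groups' means were estimated together over the 21 libraries (limma 3.58.1 with trend, R 4.3.3). Adjusted p is 2-sided, Benjamini-Hochberg over all genes tested, and called below 0.05; ± after a difference is the standard error and after a mean the SD. A fold is 2 raised to the log2 difference. How the authors formed the log2 values is not stated in the sources used here. Folds of genes near the minimum in a group, such as ITGA8, ITGB3 and ITGB6, need therefore not equal ratios of counts. The method was tested on simulated data. These were drawn independently for each library, without a batch effect, so the simulation does not cover differences between batches. No 2 libraries shared values (highest correlation 0.998).

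The genes and lists were chosen with earlier results of these data known; 1 listed marker and 1 partner gene are not reported here. Shown by library are the called genes with the largest knockdown differences (5 alpha, 3 beta, 4 laminin), called genes moving against their family, and genes that differed by at least 1 between mut9 and wild type or delta 22 and knockdown; of the partner lists, the 4 smallest adjusted p per comparison. Replicate numbers are labelled batches, which pairs the libraries: deviations from group means correlated at 0.203 on average over 34 pairs with the same number (24 above 0.1) and -0.0488 over 141 others. Alternatives were no filter, a mean of at least 100 on the linear scale, quantile scaling, trimmed mean rescaling, a replicate block, array weights, the compared groups only, batches 3 to 5 only and leaving out each library.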

Additional observations from a re-analysis of the deposited data

Results flagged for a closer look

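In 136 groups of 4 or 5 libraries, 5 held a library whose distance from the nearest of the others was large against the range of the group (3.68% of groups; chance gives about 1 in 20). For ITGA5, wild-type replicate 3 stood at 13.4, against 12.72 to 12.85 in the rest of the group; without it the difference of wild type from knockdown was -1.18, against -1.06 with it. For ITGAV, wild-type replicate 3 stood at 12.92, against 12.19 to 12.38, and the same difference was -1.71 without it and -1.58 with it. For ITGB1, wild-type replicate 5 stood at 14.02, against 14.36 to 14.47, and the difference was -1.36 without it and -1.43 with it. For LAMB2, knockdown replicate 4 stood at 11.86, against 11.62 to 11.66, and the difference of knockdown from control was 1.57 without it and 1.61 with it. For ITGB7, delta 22 replicate 3 stood at 4.25, against 3.5 to 3.63, and no comparison with delta 22 was called for this gene.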

How the results depend on the processing

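Genes called higher or lower kept their direction under every alternative run. Among the genes shown by library, the differences that changed sign were not called with or without the alternative.

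With wild type against knockdown, 2 integrin and laminin genes were called higher; the count was 2 again in batches 3 to 5 only, with ITGAX in place of ITGAM. It was 1 with no filter, 1 with a mean of at least 100, 1 in the compared groups only, 4 with quantile scaling, and 1 to 3 on leaving out single libraries. With delta 22 against knockdown, 1 higher and 1 lower became 0 and 0 with a mean of at least 100 (where ITGB3 and ITGAM were not tested), 0 and 0 in batches 3 to 5 only, 0 and 0 in the compared groups only, and 1 and 0 to 1 without single libraries. The replicate block gave 2 lower here (ITGB2 added), and it ended the calls of ITGAM on knockdown and with mut9 and gained that of LAMB3 for wild type against control (0.33, adjusted p = 0.0464); it changed no other call of these genes. The 4 genes higher with mut9 against knockdown became 2 with a mean of at least 100. The 1 gene lower with mut9 against wild type became 0 in batches 3 to 5 only and 0 to 1 without single libraries (without wild-type replicate 5 or mut9 replicate 3 or 5).

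For adaptor genes lower on knockdown (2), the count was 1 with no filter, in batches 3 to 5 only and in the compared groups only, 5 with quantile scaling, and 1 to 2 without single libraries (1 without knockdown replicate 1 or 2 or control replicate 2 or 5). Quantile scaling gave 5 adaptor genes higher with wild type and 5 with mut9 against knockdown (3 and 3 otherwise). Over all 18040 genes tested it gave 7087 higher with wild type (5334 otherwise) and 5056 higher with mut9 (4151 otherwise). It gave 8341 lower on knockdown (6132 otherwise), so these counts moved along with the whole table. For basement membrane genes lower on knockdown (2), it was 1 with no filter, with a mean of at least 100 and in batches 3 to 5 only, and 0 to 2 without single libraries (0 without knockdown replicate 5). Those higher with wild type (2) became 1 with a mean of at least 100 and 1 in batches 3 to 5 only, and those higher with mut9 (3) became 1 with a mean of at least 100. Shares over all genes are not given here for the other alternatives, so their counts cannot be set against them. The causes were not tested.

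Of 159 called differences of single genes, 20 were not called in batches 3 to 5 only, 9 in the compared groups only, 8 with no filter, 7 with quantile scaling, 2 with array weights, 2 with the replicate block and 1 with trimmed mean rescaling. With a mean of at least 100, all 129 that were still tested were called. Calls gained over all 34 genes and 7 comparisons were 6 with array weights (LAMA2 with wild type and ITGB7 with mut9 against knockdown, ITGB6 and ITGB7 for wild type against control, ITGA9 and ITGB4 for mut9 against wild type), 5 with quantile scaling (ITGB2 on knockdown, ITGAE and LAMA2 with wild type against knockdown, LAMC1 for wild type against control, LAMB4 for delta 22 against wild type), 2 in batches 3 to 5 only (ITGAX with wild type against knockdown, ITGB7 for wild type against control), 2 with the replicate block and 1 with a mean of at least 100 (ITGB4 for mut9 against wild type).

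Changes of sign were followed only for the genes shown by library, so uncalled differences of the other genes are not covered. Among the genes shown by library, signs changed as follows. Delta 22 minus knockdown became 0.04 (replicate block) and 0.07 (batches 3 to 5 only) for ITGA3 and 0.14 (batches 3 to 5 only) for ITGA2. Mut9 minus knockdown became 0.02 for LAMB2 (quantile scaling). Mut9 minus wild type became -0.03 (replicate block) and -0.04 (batches 3 to 5 only) for ITGAM. On leaving out single libraries, wild type minus knockdown was -0.04 to 0.45 for ITGAX and -0.03 to 0.38 for ITGB2. Delta 22 minus knockdown was -0.38 to 0.18 for ITGA2, -0.09 to 0.07 for ITGA3, -0.48 to 0.36 for ITGA8, -0.28 to 0.19 for ITGA11, -0.76 to 0.24 for LAMA1 and -0.21 to 0.06 for LAMA5. Mut9 minus knockdown was -0.01 to 0.09 for ITGAE. Wild type minus control was -0.39 to 0.02 for ITGB2. Mut9 minus wild type was -0.04 to 0.58 for ITGAM and -0.44 to 0.12 for LAMA1.

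The values keep no read counts, so depth limits cannot be given; genes near the minimum, such as ITGB6, ITGB7, LAMB4 and LAMC3, are those whose values these data limit most. Strand use in counting and the sequences of mut9 and delta 22 are not given in the sources used here.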
